A study of Helianthus annuus with 12 samples.

Results

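Roots and leaves of sunflower seedlings kept in polyethylene glycol (PEG) were compared in 6 of the 12 small RNA libraries of the series, 3 from PEG roots and 3 from PEG leaves. The libraries were chosen by their labels for organ and treatment, and every entry of the count table that names a small RNA was included: 163 known microRNA names, 90 predicted microRNAs, 15055 siRNAs and 592 families of other small RNAs. The plants were Helianthus annuus of the cultivar R5, grown in soil. With 4 leaves they were rinsed and stood for 24 h in a 15% solution of PEG 6000, a polymer that binds water and so lowers the water potential at the root. Control roots and control leaves, with 3 libraries each, came from R5 seedlings of the same stage that stood in distilled water over the same hours. No other treatment or genetic change is named. The labels do not say whether plants were pooled or whether replicates were separate plants, so p-values measure only the spread between these libraries, which may be technical. The labelled organs were not checked against marker transcripts, because the table counts small RNAs.

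Plant microRNAs are cut from hairpin precursors by DCL1, are loaded into AGO1 and lower the level or translation of transcripts with a matching site. Many conserved families act on transcription factors or auxin receptors, and so take part in leaf polarity, organ growth and root branching. Small interfering RNAs (siRNAs) come from long double-stranded RNA, and most of those in plants guide the methylation of transposons and repeats. An organ holds many cell types, and in bulk libraries such as these fewer cells of a type and less of a small RNA per cell cannot be told apart.

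PEG root libraries held 24163833 to 27248037 counts in all and PEG leaf libraries 30922418 to 33426228. Of these, 84.5% to 86.0% in PEG roots and 79.7% to 83.0% in PEG leaves lay in exons, introns or between genes without a named small RNA and were left out. The counts that remained were 3426565 to 3868184 per PEG root library and 5360654 to 6795847 per PEG leaf library. The shallower root libraries matter for siRNAs and predicted microRNAs, in which the table holds no count of 1 to 9, so that a 0 can stand for up to 9 reads.

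The organs differed most plainly in which class of small RNA they held. Known microRNAs made up 2.29%, 1.95% and 1.92% of all counts in the 3 PEG root libraries, against 7.80%, 8.53% and 10.03% in the 3 PEG leaf libraries. Predicted microRNAs, which have a genomic locus in the table but no known name, took 8.27%, 7.21% and 7.22% in PEG roots, against 3.03%, 2.68% and 3.75% in PEG leaves. siRNAs took 3.51%, 3.64% and 3.44% in PEG roots, against 5.73%, 5.55% and 6.19% in PEG leaves. In none of these 3 classes did the organs overlap. The means were 2.05% ± 0.207 in PEG roots and 8.79% ± 1.13 in PEG leaves for known microRNAs, 7.57% ± 0.608 and 3.16% ± 0.546 for predicted microRNAs, and 3.53% ± 0.0985 and 5.82% ± 0.332 for siRNAs (SD, n = 3 each). Each difference had a two-sided exact permutation p of 0.1, the smallest that 3 against 3 libraries allow, and an adjusted value of 0.1 over the 3 classes. Within the microRNA counts alone, known names held 21.0% to 21.7% in PEG roots and 72.0% to 76.1% in PEG leaves.

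**Figure D1:**
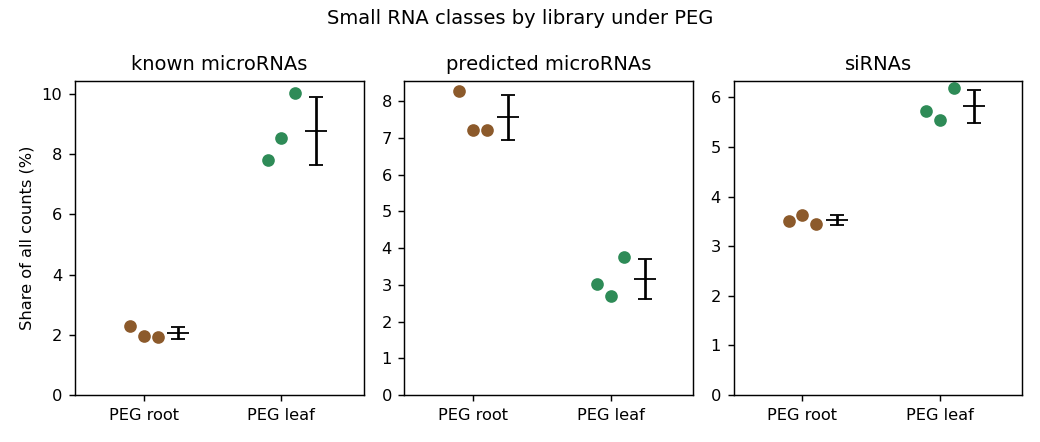
Share of all counts (%, linear axis from 0) held by known microRNAs, predicted microRNAs and siRNAs in the 3 PEG root and the 3 PEG leaf libraries. Points are libraries and the bars beside them mean ± SD. Predicted microRNAs averaged 7.57% in PEG roots and 3.16% in PEG leaves, while known microRNAs averaged 2.05% and 8.79%, with no overlap of the organs in any panel.

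Fragments of other small RNAs, among them ribosomal RNA, moved with the organ as well. They held 1.44%, 1.38% and 1.46% of all counts in PEG roots, against 0.430%, 0.577% and 0.358% in PEG leaves, and 68 of the 119 such families tested were higher in PEG roots and 2 lower. In the same fit of all 10604 features 16.5% were called, 4.27% higher and 12.3% lower. Their part in the microRNA and siRNA differences was not tested.

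Names in the table are borrowed from many plants, and several names often stand for one microRNA, so counts were summed per family. CPM of a family below are relative to microRNA counts and scaled by TMM, and differences are log2 of PEG root over PEG leaf. Of 128 families, 124 passed the minimum of 10 counts in 3 libraries. 87 of them (70.2%) were called at an adjusted p under 0.05, 48 higher (38.7%) and 39 lower (31.5%) in PEG roots, and the median difference was -0.18. The organs were separated without overlap in 82.3% of families. Against this background the known families leaned to leaves: of 34 tested, 6 were higher in PEG roots, 16 were lower and 12 were not called, with a median of -1.45. The other 4 known families, miR1171, miR1511, miR414 and miR5658, had at most 11 counts in any PEG library and were not tested.

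This lean depended on the scaling, in which abundant predicted microRNAs of roots take part. When the known families were scaled among themselves, 11 of 34 were higher and 7 lower, and their median was 0.01. That scaling ended the calls of miR156, miR160, miR162, miR166, miR168, miR394, miR396, miR5538 and miR858. None of the 22 called known families changed sign in any of 19 settings tried, and 11 were called in every setting in which they were tested: miR167, miR170, miR172, miR3630, miR393, miR397, miR398, miR477, miR4995, miR5368 and miR6300 (miR477 and miR5368 in 18). The same scaling called 5 families higher that were not called in the fit of all families: miR159, miR171, miR395, miR399 and miR403. Totals of the microRNA counts in place of TMM moved the median of all 124 families to 0.28, while with totals of all counts it was -0.02.

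**Figure D2:**
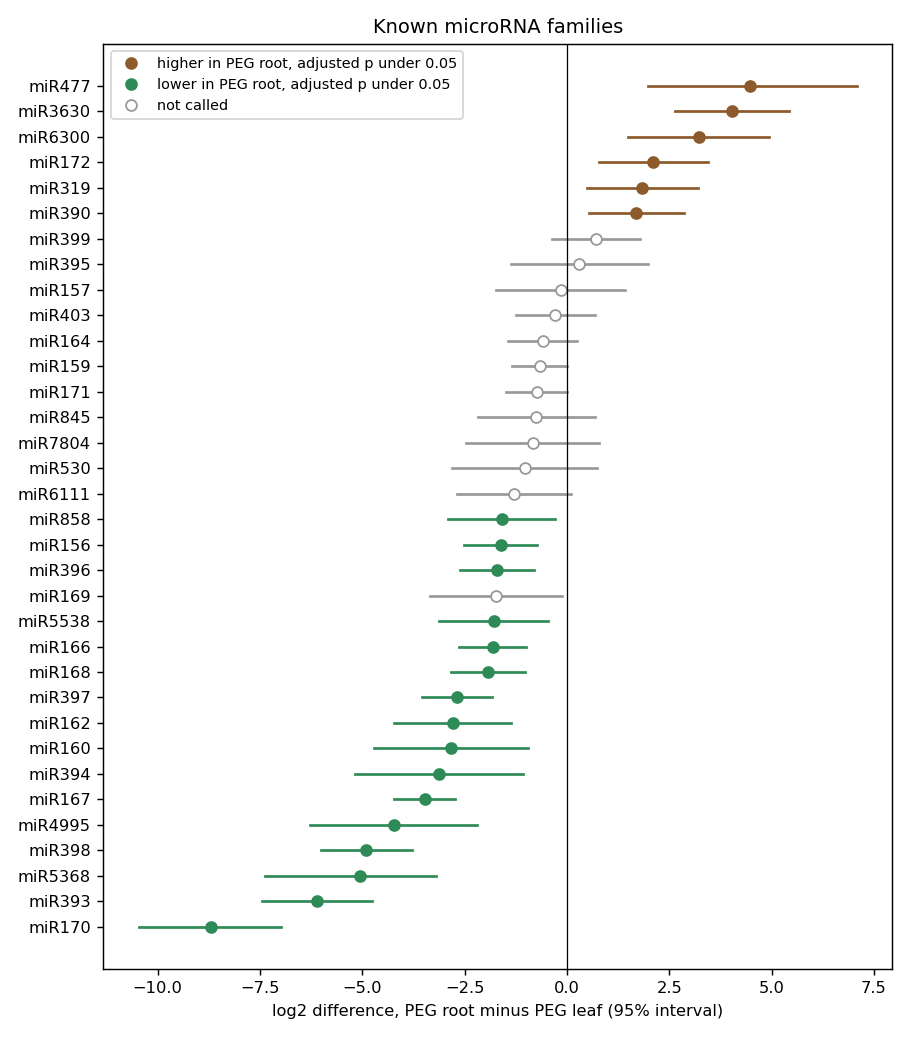
Log2 difference of each of the 34 tested known microRNA families, PEG root minus PEG leaf, with its 95% interval (linear axis). Filled symbols passed an adjusted p under 0.05 (edgeR). miR477, at 4.47, and miR170, at -8.69, stand at the ends.

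Families that act on auxin signalling all differed between the organs, 1 higher and 3 lower in PEG roots, against a background of 70.2% of families called. miR393, which cuts transcripts of the TIR1/AFB auxin receptors, had 7.74, 14.5 and 23.0 CPM in PEG roots, against 821, 977 and 1311 CPM in PEG leaves. The lowest leaf library lay far above the highest root library (log2 difference -6.10, SE 0.62, 95% interval -7.45 to -4.75, edgeR adjusted p = 8.55e-06). miR167, which acts on the auxin response factors ARF6 and ARF8, had 11163, 10467 and 10654 CPM in PEG roots, against 104843, 108321 and 145510 CPM in PEG leaves. Root libraries were close to each other and each leaf library was higher (log2 difference -3.47, 95% interval -4.22 to -2.73, edgeR adjusted p = 8.55e-06). miR160, which acts on ARF10, ARF16 and ARF17, had 422, 794 and 680 CPM in PEG roots, against 4587, 2275 and 6586 CPM in PEG leaves. The leaf libraries differed widely among themselves, but each lay above each root library (log2 difference -2.83, 95% interval -4.71 to -0.95, edgeR adjusted p = 0.0109), and with known families only the call was lost (edgeR adjusted p = 0.0791). miR390 starts the production of trans-acting siRNAs that restrain other auxin response factors, and went the other way. It had 499.9, 549.7 and 814.2 CPM in PEG roots, against 205.7, 190.5 and 181 CPM in PEG leaves, with no overlap (log2 difference 1.69, 95% interval 0.53 to 2.85, edgeR adjusted p = 0.0128). The median of these 4 families was -3.15.

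Both copper-related families tested were lower in PEG roots, beside 31.5% of all families. miR398, which lowers copper/zinc superoxide dismutase transcripts, was among the most abundant leaf families. It had 7654, 7335 and 6034 CPM in PEG roots, against 210578, 169990 and 246825 CPM in PEG leaves (log2 difference -4.90, 95% interval -6.02 to -3.78, edgeR adjusted p = 1.02e-05). Every leaf library exceeded every root library, and the name miR398b_2 held 98.7% to 99.8% of the family in each of the 6. miR397, which acts on laccases of lignin synthesis, had 795, 1048 and 615 CPM in PEG roots, against 5677, 5567 and 4648 CPM in PEG leaves (log2 difference -2.69, edgeR adjusted p = 0.000102). The precursor family MIR408 of Rfam (RF00690) had 26.0, 30.3 and 19.6 CPM in PEG roots, against 13.7, 14.6 and 7.27 CPM in PEG leaves, relative to the counts of all named small RNAs. The organs did not overlap, but it was not called (log2 difference 1.09, 95% interval -0.85 to 3.04, edgeR adjusted p = 0.407). Mature miR408 and miR857 were not analysed here.

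Regulators of transcription factors were split, with 2 of 12 higher, 5 lower and 5 not called, and a median of -1.17. Of all tested families 38.7% were higher and 31.5% lower, and the median of the 34 known families was -1.45. miR172 and miR319 were the 2 higher regulators. miR172, which acts on AP2-like factors, had 27.6, 71.0 and 66.2 CPM in PEG roots, against 12.7, 16.4 and 9.23 CPM in PEG leaves (log2 difference 2.10, edgeR adjusted p = 0.00903). miR319, which acts on TCP factors of leaf growth, had 1044, 706 and 910 CPM in PEG roots, against 201, 230 and 312 CPM in PEG leaves (log2 difference 1.84, edgeR adjusted p = 0.0181). In both families the organs were separated, but miR319 had an adjusted p of 0.0518 without PEG leaf replicate 2 and 0.0694 with a replicate block.

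The lower regulators included the most abundant family of leaves. miR166, which restricts the HD-ZIP III factors of leaf polarity and vascular patterning, had 73761, 56854 and 62214 CPM in PEG roots, against 181066, 223460 and 272574 CPM in PEG leaves (log2 difference -1.81, edgeR adjusted p = 0.00125). miR396, which acts on growth-regulating factors, had 24816, 24445 and 24806 CPM in PEG roots, against 57734, 71894 and 113425 CPM in PEG leaves (log2 difference -1.71, edgeR adjusted p = 0.00289). For both, root libraries were close together and leaf libraries spread upward. miR156, which acts on SPL factors of phase change, had a log2 difference of -1.62 (edgeR adjusted p = 0.0037) and miR858, which acts on MYB factors, of -1.60 (edgeR adjusted p = 0.0291). miR858 varied in leaves, with 58765, 99020 and 31049 CPM, against 27249, 16845 and 18412 CPM in PEG roots, and had an adjusted p of 0.0529 without PEG leaf replicate 2.

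Near-identical families may share reads in ways the counting could not separate. miR170, which acts on GRAS factors as miR171 does, had the widest difference of the tested known families, with 3.70, 1.61 and 0.631 CPM in PEG roots, against 798, 927 and 768 CPM in PEG leaves (log2 difference -8.69, 95% interval -10.45 to -6.99, edgeR adjusted p = 8.55e-06). The root values rest on few counts. miR171 itself was not called, with 4289, 4252 and 3841 CPM in PEG roots, against 7395, 7625 and 5720 CPM in PEG leaves (edgeR adjusted p = 0.0647). Its organs did not overlap, and the call depended on the setting: miR171 passed as lower in 12 of 19 settings, among them PEG libraries only (edgeR adjusted p = 0.0138), and as higher with known families only (log2 difference 0.70, edgeR adjusted p = 0.0142). The same caution holds for miR156 and miR157, and for miR159 and miR319. miR157 had a log2 difference of -0.15, miR159, which acts on GAMYB factors, of -0.67, miR164, which acts on NAC factors, of -0.60, and miR169, which acts on NF-YA factors, of -1.74. None of the 4 was called, and miR169 missed the threshold narrowly (edgeR adjusted p = 0.0507). miR169 passed in 10 of the 19 settings, among them PEG libraries only (edgeR adjusted p = 0.0141). miR164 passed in 3, and miR159 in 9, of which 8 gave it as lower and known families only as higher (log2 difference 0.77, edgeR adjusted p = 0.025).

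The pathway's own regulators were lower (2 of 3) or not called, beside 31.5% of all families that were lower. miR168, which acts on AGO1, had 19762, 14928 and 14803 CPM in PEG roots, against 59473, 47197 and 81416 CPM in PEG leaves (log2 difference -1.93, edgeR adjusted p = 0.00157). miR162, which acts on DCL1, had 35.0, 102 and 94.9 CPM in PEG roots, against 376, 286 and 945 CPM in PEG leaves (log2 difference -2.80, edgeR adjusted p = 0.00239). miR403, which acts on AGO2, had 746, 454 and 408 CPM in PEG roots, against 661, 722 and 577 CPM in PEG leaves, which overlap. Its log2 difference of -0.29 had a 95% interval of -1.25 to 0.68, and it was called higher with known families only (1.14, edgeR adjusted p = 0.0126).

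Neither nutrition family was called. miR399, which acts on the phosphate regulator PHO2, had 3176, 2393 and 3790 CPM in PEG roots, against 1327, 1878 and 2528 CPM in PEG leaves, with overlap (log2 difference 0.71, 95% interval -0.37 to 1.79). miR395, which acts on sulphate assimilation, had 56.9, 11.9 and 32.2 CPM in PEG roots, against 8.67, 32.1 and 40.8 CPM in PEG leaves (log2 difference 0.31, 95% interval -1.37 to 1.98). These intervals leave room for differences in either direction. With known families only both were called higher, miR399 at 2.17 (edgeR adjusted p = 5.28e-05) and miR395 at 1.76 (edgeR adjusted p = 0.0334), and in no other setting. Of the families that act on NLR resistance genes, none was tested.

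Among other conserved families, miR394, which acts on the F-box gene LCR, was lower, with 27.6, 66.8 and 34.7 CPM in PEG roots, against 523, 195 and 406 CPM in PEG leaves (log2 difference -3.12, edgeR adjusted p = 0.0106). miR477 was higher at a low level, with 9.43, 39.5 and 10.4 CPM in PEG roots, against 0.289, 0.584 and 1.68 CPM in PEG leaves (log2 difference 4.47, edgeR adjusted p = 0.00423). miR530 and miR845 were not called, with log2 differences of -1.02 and -0.74.

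Of 7 further families known from few plants, 2 were higher and 3 lower, beside 38.7% and 31.5% of all families. miR3630 had 96.6, 127 and 179 CPM in PEG roots, against 7.80, 7.60 and 9.23 CPM in PEG leaves (log2 difference 4.02, edgeR adjusted p = 0.000176). miR6300 had 98.3, 57.2 and 84.2 CPM in PEG roots, against 6.36, 8.18 and 11.2 CPM in PEG leaves (log2 difference 3.21, edgeR adjusted p = 0.00306). Root libraries were higher throughout in both. miR4995 had 3.70, 2.25 and 4.73 CPM in PEG roots, against 71.6, 68.7 and 61.5 CPM in PEG leaves (log2 difference -4.22, edgeR adjusted p = 0.00177). miR5368, at -5.06, and miR5538, at -1.78, were called at levels below 14 CPM in every PEG library, and miR6111 and miR7804 were not called. miR6111 passed as lower in 6 of 19 settings.

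Within a family the names did not always move together. The 163 known names gave 129 that could be tested in a fit of all 10604 features. Of these 129, 16 were higher and 27 lower in PEG roots, beside 4.27% and 12.3% of all features. CPM of single names and siRNAs are relative to the counts of all named small RNAs. miR171 held called names of both signs. miR171a_1 had 2388, 2643 and 2169 CPM in PEG roots, against 62.5, 38.5 and 96.7 CPM in PEG leaves (log2 difference 5.19, SE 0.38, edgeR adjusted p = 0.000174). miR171b_2 was the mirror image, with 11.8, 21.6 and 25.0 CPM in PEG roots, against 2756, 3028 and 2164 CPM in PEG leaves (log2 difference -7.08, SE 0.43, edgeR adjusted p = 0.000134). The first name made up 72.8% to 78.4% of the family in each PEG root library and the second 74.2% to 79.3% in each PEG leaf library. The leading name of the family thus differed between the organs, which the family sum does not show.

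The same exchange was present without PEG. miR171a_1 led in each control root library, at 78.4% to 81.9% of the family, and miR171b_2 in each control leaf library, at 67.8% to 72.7%. In addition, 4 further miR171 names were called higher in PEG roots. miR171i_1 had a log2 difference of 5.51, miR171f_1 of 6.13, miR171e-5p of 3.09 and miR171f_3 of 1.29, of which miR171f_1 had at most 9.35 CPM in any library. miR171a_2 was lower, at -1.44. The call of miR171f_3 was lost under other scalings and without PEG root replicate 1 (edgeR adjusted p = 0.0649), and that of miR171f_1 without PEG leaf replicate 1 (edgeR adjusted p = 0.0583).

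**Figure D3:**
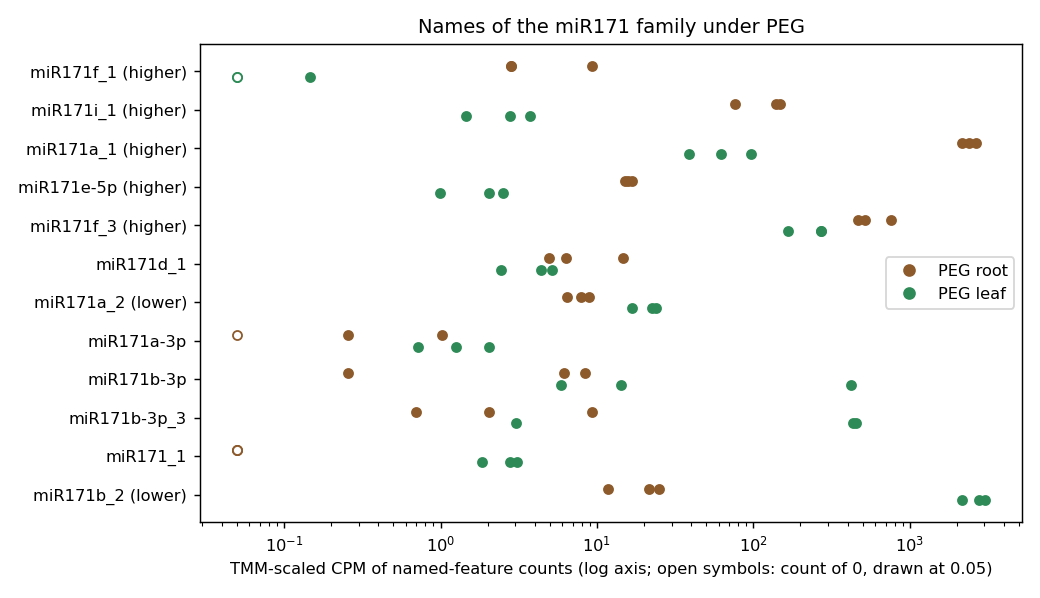
Level of the 12 tested miR171 names in each PEG root and PEG leaf library (TMM-scaled CPM of named small RNA counts, log axis). Open symbols are counts of 0, drawn at 0.05. miR171a_1 lies at 2169 to 2643 CPM in PEG roots and 38.5 to 96.7 CPM in PEG leaves, and miR171b_2 at 11.8 to 25.0 CPM and 2164 to 3028 CPM.

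A second kind of exchange followed the library and not the organ. In miR166, the name miR166h-3p_1 had 85168, 79 and 88022 counts in PEG roots, against 352970, 382 and 432 counts in PEG leaves. The name miR166u filled the gaps, with 312, 79103 and 332 counts in PEG roots, against 709, 435788 and 579214 counts in PEG leaves. Together the pair held 39.0%, 44.7% and 44.8% of the family in PEG roots, against 56.4%, 57.02% and 59.5% in PEG leaves, which is steady within an organ. The names miR167d-5p and miR167d_1 alternated the same way in PEG leaves, where miR167d_1 had 4673, 343068 and 9379 counts. So did miR160 and miR160a-5p, with 64 counts of miR160 in PEG leaf replicate 2 and 15356 and 22598 in the others. No single-name difference was called for these 6 names in the main fit. Some other settings called miR167d_1 lower, among them DESeq2 (DESeq2 adjusted p = 0.000184) and PEG libraries only (edgeR adjusted p = 0.0424). The sources used here do not say how the authors' counting assigned reads to such names.

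The remaining miR167 names were called with both signs. miR167a had 56.9, 119 and 152 CPM in PEG roots, against 9.58, 18.3 and 18.7 CPM in PEG leaves (log2 difference 2.81, edgeR adjusted p = 0.00544). miR167a_2 had 83.9, 76.9 and 97.0 CPM in PEG roots, against 708, 944 and 763 CPM in PEG leaves (log2 difference -3.23, edgeR adjusted p = 0.000443). miR167a-5p was not called. The table also holds precursor families of Rfam, of which 37 were tested, 2 higher and 2 lower, beside 4.27% and 12.3% of all features. The organs did not overlap in 81.1% of the 37, against 38.5% of all features, and their median difference was 1.14. Animal families such as mir-10 (RF00104, 1.82) and mir-181 (RF00076, 1.14) were among them and were not called in the main fit. The organs did not overlap in either, and each passed in 2 of 19 settings. mir-10 had 237, 308 and 305 CPM in PEG roots, against 58.9, 90.9 and 91.7 CPM in PEG leaves. The main fit takes its spread from all 12 libraries, among them control root replicate 3, described below, whose part in these missing calls was not tested. The precursor families of MIR164 (RF00647, -3.24) and MIR167_1 (RF00640, -1.93) were lower and that of mir-399 (RF00445, 3.28) higher. RF00640 was not called with a replicate block (edgeR adjusted p = 0.178), nor when any 1 PEG root library, PEG leaf replicate 2 or PEG leaf replicate 3 was left out (edgeR adjusted p = 0.0507 to 0.108). The fourth, mir-71 (RF00832, 4.13), is an animal family and had 3.04 to 4.63 CPM in PEG roots and at most 0.293 CPM in PEG leaves.

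Predicted microRNAs, in contrast to the known families, leaned to roots. In the family test 42 of 90 were higher in PEG roots, 23 were lower and 25 were not called, beside 38.7% higher and 31.5% lower of all 124 families. Predicted microRNAs are the larger part of these families. Their median was 1.15 beside -0.18 over all families. Whether this lean holds when the predicted microRNAs are scaled among themselves was not tested. 54 of the 65 called were called in every setting of the family test in which they were tested, at most 18, and none changed sign. The fit of all features called 44 of the 90 higher and only 11 lower, beside 4.27% and 12.3% of all features. Their median there was 1.77, and fewer leaf-rich calls were made than in the family test. Of the 42 higher, 33 had counts in both organs, and their differences ran between 1.45 and 6.08. Between -7.41 and -1.05 lay those of the 22 lower with counts in both organs.

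The most abundant ones were in roots. novel_mir79 had 159073, 38493 and 82382 CPM in PEG roots, against 2776, 3060 and 6096 CPM in PEG leaves (log2 difference 4.55, edgeR adjusted p = 0.000135). novel_mir20 had 69832, 86334 and 100932 CPM in PEG roots, against 13580, 15878 and 11346 CPM in PEG leaves (log2 difference 2.66, edgeR adjusted p = 0.00157). novel_mir9, with 60845 to 75168 CPM in PEG roots and 4016 to 6526 CPM in PEG leaves, novel_mir10, with 54163 to 81485 CPM and 1710 to 5437 CPM, and novel_mir58, with 44927 to 74679 CPM and 10464 to 18034 CPM, were called higher too. Each root library exceeded each leaf library for all 5. These 5 were chosen by their level in PEG roots, and the organs did not overlap in 83.3% of all 90 predicted microRNAs. The 10 most abundant families of PEG roots held 67.8% of the microRNA counts, and 8 of them were predicted. In PEG leaves the 10 most abundant held 80.5%, and 3 were predicted.

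Of those 3 in leaves, novel_mir40 had 11830, 13247 and 5569 CPM in PEG roots, against 64754, 32571 and 100200 CPM in PEG leaves (log2 difference -2.69, edgeR adjusted p = 0.000665). novel_mir23 had 7091, 6425 and 3886 CPM in PEG roots, against 36603, 20358 and 23098 CPM in PEG leaves (log2 difference -2.20, edgeR adjusted p = 0.00482). novel_mir75 had 23356, 19940 and 20392 CPM in PEG roots, against 19730, 17638 and 13648 CPM in PEG leaves. Its root libraries lay just above its leaf libraries, and it was not called (log2 difference 0.32, edgeR adjusted p = 0.401). novel_mir45 was lower in PEG roots, with 1434 to 5506 CPM against 9871 to 20101 CPM in PEG leaves.

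Some predicted microRNAs were counted in 1 organ alone. 8 had counts in all 3 PEG root libraries and 0 in all 3 PEG leaf libraries, and the same 8 were counted in all 3 control roots and in no control leaf. novel_mir72 showed the reverse, with 41.0, 38.6 and 41.7 CPM in PEG leaves. With a 0 read as up to 9 counts, novel_mir16, with 131, 254 and 215 CPM in PEG roots, was at least 77.6-fold higher and novel_mir14, with 161, 150 and 214 CPM, at least 67.9-fold higher, both called (edgeR adjusted p = 9.08e-05). The other higher ones with large differences had counts in a leaf library. novel_mir15 had 238, 487 and 515 CPM in PEG roots, against 6.93, 8.18 and 3.08 CPM in PEG leaves (log2 difference 6.08). novel_mir24 had 1079, 2833 and 1781 CPM in PEG roots, against 55.5, 24.2 and 53.7 CPM in PEG leaves (log2 difference 5.41). novel_mir12, novel_mir39, novel_mir2 and novel_mir51 followed, with log2 differences of 5.70, 5.59, 5.29 and 5.25.

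In the other direction novel_mir78 had 12.5, 0 and 7.57 CPM in PEG roots, against 1171, 1578 and 661 CPM in PEG leaves (log2 difference -7.41, edgeR adjusted p = 0.000449). novel_mir29 had 103, 128 and 230 CPM in PEG roots, against 4665, 4547 and 4796 CPM in PEG leaves (log2 difference -4.93, SE 0.54, edgeR adjusted p = 1.23e-05). novel_mir43 had 141, 126 and 154 CPM in PEG roots, against 1963, 2367 and 2711 CPM in PEG leaves (log2 difference -4.06, edgeR adjusted p = 8.55e-06). novel_mir18, novel_mir26, novel_mir71 and novel_mir47 had log2 differences of -5.95, -4.64, -3.49 and -3.20. novel_mir30, at -6.15, rested on PEG leaf replicate 3, which had 4781 CPM beside 148 and 265 CPM in the other PEG leaves, and was not called without it (log2 difference -3.17, edgeR adjusted p = 0.0907). Leaving out PEG root replicate 1 ended its call as well (log2 difference -5.64, edgeR adjusted p = 0.054).

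**Figure D4:**
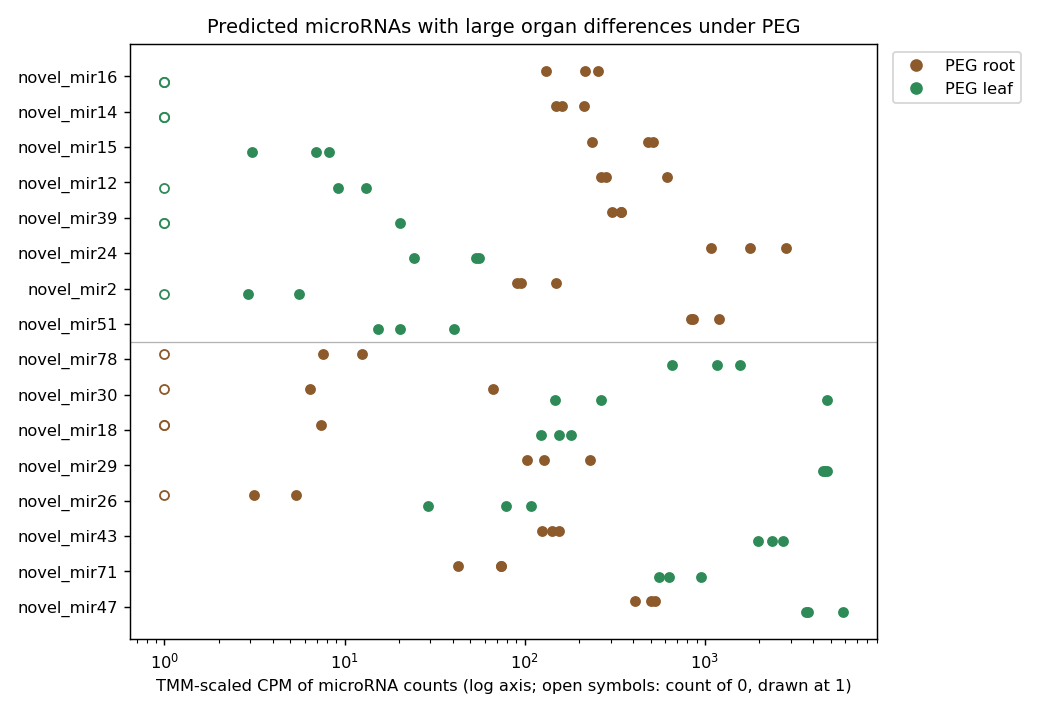
Level of the 8 predicted microRNAs with the largest positive and the 8 with the largest negative differences among those called without overlap and with a mean of at least 100 counts (TMM-scaled CPM of microRNA counts, log axis). Points are PEG root and PEG leaf libraries, and open symbols are counts of 0, drawn at 1. novel_mir16 and novel_mir14 have no count in PEG leaves, and novel_mir43 lies at 126 to 154 CPM in PEG roots and 1963 to 2711 CPM in PEG leaves.

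Predicted loci that lie near each other on a sequence of the assembly mostly carried the same call. novel_mir13, novel_mir14, novel_mir15 and novel_mir16 follow one another with gaps of 81.602, 30.676 and 9.436 kb on both strands, and all 4 were higher in PEG roots, novel_mir13 with a log2 difference of 3.24. The pairs novel_mir38 and novel_mir39 (gap 7.517 kb), novel_mir53 and novel_mir54 (3.674 kb) and novel_mir67 and novel_mir68 (1.631 kb) were higher as well, though novel_mir68 passed in 13 of 18 settings. novel_mir63 and novel_mir64 (77.131 kb apart) were lower, and novel_mir65, which is 78.534 kb further, was not called (log2 difference -0.80). These were the 8 neighbouring gaps under 100 kb, and the grouping was chosen after the values were seen. Some loci enter more than 1 gap. Of all 90 predicted microRNAs 42 were higher and 23 lower, so a shared call is common among them. Whether neighbours share a call more often than other pairs was not tested. Whether the mature sequences of such neighbours are near-identical was not tested. Loci of predicted microRNAs had a median length of 181.5 bases among those higher, 197 among those lower and 152 among those not called. The plus strand held 33 of 42, 22 of 23 and 21 of 25.

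siRNAs were the most numerous entries, and PEG leaves held a wider set of them. PEG root libraries counted 4766 to 5289 siRNAs each and PEG leaf libraries 8782 to 9713. 149 siRNAs were counted in all 3 PEG roots and in no PEG leaf, against 1666 in all 3 PEG leaves and in no PEG root, while 3105 were counted in all 6 libraries and 2029 in none. With at least 50 counts asked of each of the 3 libraries, these numbers were 15 and 118. Leaf libraries were deeper and values under 10 are not listed, and the part of depth in this asymmetry was not tested. Of the 1666 in leaves, 1129 were also counted in all 3 control leaves, and of the 149 in roots 52 were counted in all 3 control roots.

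Of 10266 siRNAs tested, 325 were higher in PEG roots and 1261 lower, beside 4.27% and 12.3% of all 10604 features, most of which are siRNAs. The median difference of siRNAs was -1.20 beside -1.15 over all features. Most of the lower ones, 1133, were at 0 in all 3 PEG roots, where the size of a fitted difference is not measured. With each 0 of siRNAs and predicted microRNAs set to 9 counts, 708 siRNAs were higher and 1119 lower, and the median over all features was -0.019. Among the 3105 counted in all 6 libraries the split was turned, with 209 higher and 117 lower, beside 4.27% and 12.3% of all features, and a median of -0.05. That split depended on the scaling: 144 higher and 176 lower were called with the size factors of DESeq2, and 130 and 123 with totals of all counts. Without control root replicate 3, 286 were higher and 253 lower, and without PEG root replicate 3, PEG leaf replicate 1 or PEG leaf replicate 2 the calls numbered 206, 210 and 214 in all. The 209 higher had a median difference of 2.64 and the 117 lower of -1.88. A difference of over 16-fold was seen in 33 of those higher and 15 of those lower.

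Among those counted in all 6 libraries, the largest differences without overlap were as follows. novel_sir16651 had 223, 314 and 282 CPM in PEG roots, against 2.92, 3.80 and 5.70 CPM in PEG leaves (log2 difference 6.04, SE 0.67, edgeR adjusted p = 0.0011). novel_sir8127 had 399, 473 and 664 CPM in PEG roots, against 3.33, 5.9997 and 18.4 CPM in PEG leaves (log2 difference 5.79, edgeR adjusted p = 0.00287). Next came novel_sir8129, novel_sir15789 and novel_sir8976, with log2 differences of 5.73, 5.70 and 5.49. Leaving out PEG leaf replicate 2 ended the calls of novel_sir15789 (edgeR adjusted p = 0.0514) and novel_sir8976 (edgeR adjusted p = 0.0668), and leaving out PEG leaf replicate 1 that of novel_sir8976 (edgeR adjusted p = 0.066).

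Lower in PEG roots were novel_sir11849, with 5.15, 6.11 and 4.21 CPM in PEG roots, against 440, 618 and 634 CPM in PEG leaves (log2 difference -6.77, edgeR adjusted p = 0.00523), and novel_sir16568, with 98.6, 69.8 and 51.2 CPM, against 2846, 3387 and 4349 CPM in PEG leaves (log2 difference -5.59, SE 0.41, edgeR adjusted p = 0.000174). novel_sir14739, novel_sir4797 and novel_sir11275 had log2 differences of -6.14, -5.69 and -5.50. These 5 were chosen among siRNAs whose organs did not overlap, as was so for 45.1% of those counted in all 6 libraries. At 0 in every PEG leaf, novel_sir15217 had 178, 107 and 98.2 CPM in PEG roots, at least 99.5-fold higher (edgeR adjusted p = 0.00175). novel_sir13012 was at least 62.8-fold higher and called, whereas novel_sir13230, with 9.78, 146 and 103 CPM in PEG roots, was not called (edgeR adjusted p = 0.0931). At 0 in every PEG root, novel_sir4168 had 270, 260 and 475 CPM in PEG leaves, at least 150-fold lower in PEG roots (edgeR adjusted p = 0.000759). The bounds for novel_sir10392 and novel_sir12008 were 119-fold and 89.1-fold lower, and both were called.

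None of the most abundant siRNAs named here was called in the main fit. novel_sir13757 had 14511, 9484 and 16643 CPM in PEG roots, against 17125, 16796 and 13908 CPM in PEG leaves (log2 difference -0.24, SE 0.23, edgeR adjusted p = 0.506). novel_sir12465 and novel_sir6423, each above 7000 CPM in all 6 libraries, had log2 differences of 0.37 and -0.20 and were not called. The organs did not overlap for novel_sir12465, which passed as higher in 1 of 18 settings (limma voom adjusted p = 0.0488). novel_sir16047, with 2619, 8140 and 3358 CPM in PEG roots, against 11978, 8617 and 23464 CPM in PEG leaves, missed the threshold (log2 difference -1.64, edgeR adjusted p = 0.0618). Its organs did not overlap, and it passed as lower in 6 of 18 settings, among them DESeq2 (DESeq2 adjusted p = 0.00641). The 10 most abundant siRNAs of a library held 26.9% to 29.5% of siRNA counts in PEG roots and 30.4% to 32.3% in PEG leaves.

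The organ differences of stressed seedlings were next set beside those of control seedlings, which rest on other libraries. Across the 108 families counted in all 4 groups the differences had r = 0.922 and rho = 0.928, as a description over families that share libraries and scaling. 81 families were called in both comparisons with the same sign. Among the 36 of these 108 called higher in PEG roots, 29 had a smaller difference under PEG than in control, with medians of 2.95 under PEG and 4.87 in control. Among the 35 called lower, 23 had a smaller difference under PEG, with medians of -2.69 and -2.87. For the 30 predicted microRNAs among the 36, the median level in PEG leaves was 8.33%, 14.7% and 12.8% of the mean PEG root level, and that in control leaves 3.45%, 3.33% and 11.7% of it. Control leaf replicate 3 lay near the PEG leaves in this value. The control roots were at 126%, 128% and 238% of that mean, against 87.7%, 99.9% and 102% in the PEG roots themselves, and control root replicate 3 was the highest. That library also stood apart in several animal precursor families of Rfam. Relative to all named small RNAs, mir-10 (RF00104) had 427, 444 and 39293 CPM in the control roots, and mir-26 (RF00244) 252, 233 and 38469 CPM. The control medians above include this library, and its part in them was not tested.

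**Figure D5:**
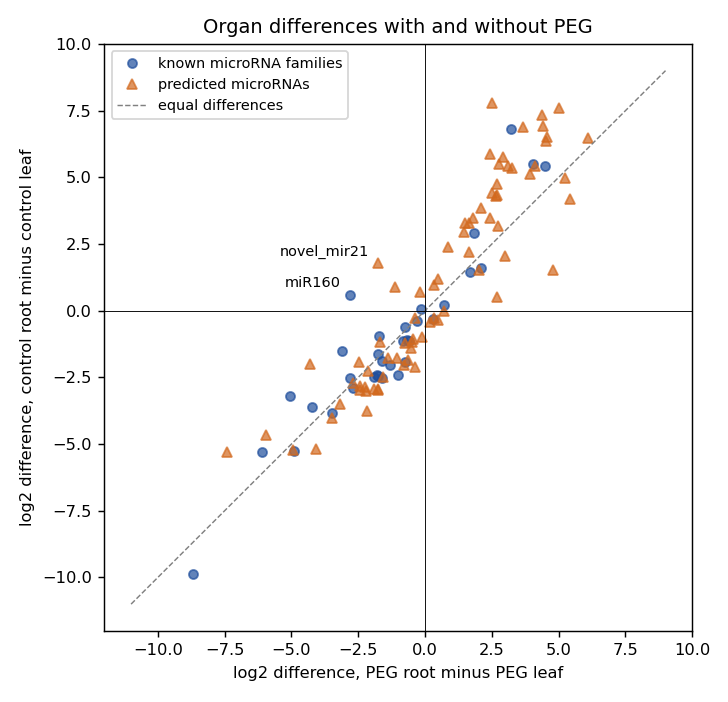
Log2 organ difference of 108 microRNA families under PEG (PEG root minus PEG leaf, horizontal) and in control seedlings (control root minus control leaf, vertical), both on linear axes. The dashed line marks equal differences. The differences had r = 0.922, the 36 families called higher had medians of 2.95 under PEG and 4.87 in control, and novel_mir21 (-1.77 under PEG, 1.78 in control) lies in the opposite quadrant.

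The test of the change in organ difference itself (edgeR) called none of the 124 families (0.0%). An unadjusted p under 0.05 was found for 30, and 30 were called when DESeq2 was used in place of edgeR. miR160 had an organ difference of -2.83 under PEG and 0.61 in control. The change of -3.43 did not pass (edgeR adjusted p = 0.119), and passed with DESeq2 alone among the settings (DESeq2 adjusted p = 0.00933). That of novel_mir21 did not pass either, but did in 7 settings. In the test of all features 215 of 10604 (2.03%) had a changed organ difference, 210 of them upward and all of these siRNAs. No such call was left when zeros of siRNAs and predicted microRNAs were set to 9 counts, or with a block by replicate number, so this count depended on how values below 10 are set and on the model. Control root replicate 3 counted 1576 siRNAs beside 3701 and 3381 in the other control roots. Without it 222 features were called.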

How the data were processed

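Small RNA of 12 libraries was made with Trizol and BGI500 protocols, per the labels. The authors deposited raw counts per small RNA and TPM values. The deposited TPM equalled CPM of the column total, within 0.0051 plus 0.01%, in 100% of cells, and were used only for that check. Bowtie2 (version 2.2.9) and Bowtie are listed in the submitters' processing notes with no role stated. Genome build, mapping settings and annotation releases were not given in the sources used here. Of 15903 entries, 3 name no small RNA and stayed out of library sizes and tests, except where totals of all counts were tried.

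Counts were tested in R 4.3.3 with edgeR 4.0.16 (TMM, glmQLFit, glmQLFTest, Benjamini-Hochberg, threshold 0.05), with a mean per group over 12 libraries, 8 residual degrees of freedom and a minimum of 10 counts in 3 libraries. Families (124 tested) and all features (10604) were fitted separately. Intervals are at 95% and cover the spread of these libraries. Floors of 9 counts per library for predicted microRNAs and siRNAs, and 3 for known microRNAs, cover counting error only, since reads carry no molecular identifiers. Alternatives used DESeq2 1.42.0 and limma 3.58.1 (voom).

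Named features are called ones without overlap and with the largest differences, the most abundant ones, those at 0 in 1 organ, all tested families of the lists, and the names of families with called names of both signs. The members, lists and rules were chosen with earlier results of these data known. On simulated counts, 80% of 16-fold and 20% of 4-fold changes were recovered among 124 families, and 64.6% and 16% among 6753 features. Only 10 families per fold, and 100 (4-fold) and 99 (16-fold) features, were changed, each with a mean of at least 50 counts. These data held larger shares of calls, 70.2% of families and 16.5% of features, so the rates may not carry over.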

Additional observations from a re-analysis of the deposited data

Results flagged for a closer look

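The predicted microRNA novel_mir21 had organ differences of opposite sign with and without PEG. It had 3255, 2634 and 1668 CPM in PEG roots, against 5866, 3706 and 16129 CPM in PEG leaves, and 2969, 3476 and 1739 CPM in control roots, against 481, 357 and 1538 CPM in control leaves. The roots lay below every leaf under PEG and above every leaf in control. Each organ difference was called (log2 difference -1.77 under PEG, edgeR adjusted p = 0.0243, and 1.78 in control, edgeR adjusted p = 0.0215). The difference between them, -3.55, was tested and did not pass (SE 0.90, edgeR adjusted p = 0.0737). It passed in 7 other settings: the size factors of DESeq2 in edgeR (adjusted p = 0.04998), DESeq2 itself (adjusted p = 0.000195), at least 50 counts (edgeR adjusted p = 0.0175), a block by replicate number (edgeR adjusted p = 0.043), zeros set to 9 (edgeR adjusted p = 0.0349), and without PEG leaf replicate 1 (edgeR adjusted p = 0.0238) or 2 (edgeR adjusted p = 0.0366). The difference under PEG ran between -2.22 and -1.13 over 18 settings and passed in 14. It did not pass with totals of the fitted features (-1.22, edgeR adjusted p = 0.0845), with a block pairing same-numbered libraries of a treatment (-1.49, edgeR adjusted p = 0.113), without PEG root replicate 3 (-1.61, edgeR adjusted p = 0.0503) or without PEG leaf replicate 3 (-1.13, edgeR adjusted p = 0.0832). The root levels overlapped between treatments, while the leaf levels did not.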

How the results depend on the processing

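The count of families called kept within 1.5 times of 87 in every setting but known families alone (18 of 34 tested), and 21 to 26 known and 64 to 67 predicted ones were called when a library was left out. Calls over all features moved further. Of 10604 tested, 1754 were called, against 2741 with limma voom and 315 with a replicate block. Where fewer features were tested, 766 of 3332 were called with at least 50 counts in 3 libraries, 2849 of 7839 with PEG libraries only and 203 of 338 with siRNAs left out. For siRNAs, 1586 became 2554 with voom, 212 with the block, 625 with at least 50 counts and 2664 with PEG libraries only. Among siRNAs counted in all 6 libraries, 326 became 551 with DESeq2, 126 with the block, 673 with zeros set to 9 and 791 with PEG libraries only, and 206 to 539 with a library left out (539 without control root replicate 3, 206 without PEG root replicate 3, 210 without PEG leaf replicate 1, 214 without PEG leaf replicate 2). These class counts were chosen after seeing the data.

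Changes of organ difference with PEG were the least stable. Against 0 families, 13 were called with DESeq2 size factors, 10 with at least 50 counts, 30 with DESeq2, 11 with a block by replicate number, 8 with zeros set to 9 and 0 to 12 with a library left out (12 without PEG leaf replicate 1). Against 215 features, 1 was called with no filter, 39 with at least 50 counts, 0 with the block by replicate number, 0 with zeros set to 9 and 189 to 373 with a library left out (373 without PEG root replicate 1). The causes of these shifts were not tested.

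The labels do not say that same-numbered root and leaf libraries share plants, so the main fit has no block. Same-numbered PEG root and PEG leaf libraries did not deviate together (correlations -0.183, -0.147 and -0.166 over all features, and -0.284, -0.359 and -0.463 over families). Same-numbered control libraries did (0.216, 0.182 and 0.218 over all features, and 0.138, 0.335 and 0.298 over families). The change of organ difference, which uses both, is given with and without another block, by replicate number over all 12 libraries. That block does not pair roots and leaves within a treatment, so such pairing was not modelled for the change. The block for the PEG comparison pairs same-numbered root and leaf libraries of a treatment. With it 75 families were called, 45 higher and 30 lower, and miR319, miR390, miR394, miR5538, miR858 and novel_mir30 were among those not called.

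Counted in 1 organ alone were 5 predicted microRNAs in PEG roots with at least 50 counts, 15 siRNAs in PEG roots and 118 in PEG leaves with at least 50 counts, and 304 and 3323 with 2 of 3 libraries. Families and features that were not called changed sign in places. With known families only, log2 differences were 1.32 for miR157, 0.77 for miR159, 0.83 for miR164, 0.70 for miR171, 1.14 for miR403, 0.40 for miR530, 0.19 for miR6111, 0.60 for miR7804 and 0.69 for miR845. With totals of the fitted features they were 0.34 for miR157 and 0.13 for miR403. novel_mir75 was at -0.011 with zeros set to 9, novel_sir12465 at -0.10 with totals of all counts and miR167a-5p at -0.027 with siRNAs left out. With a library left out, miR157 ran between -0.59 and 0.040, miR395 between -0.45 and 0.56 and novel_mir75 between -0.025 and 0.34. Of the other values of single features, 79 gained and 53 lost a call in some setting and 1822 kept their direction and call.

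Depth limits siRNAs and predicted microRNAs under 10 counts. Of 100 simulated 4-fold changes, all set in features with a mean of at least 50 counts, 16 were recovered.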
